A study of Homo sapiens with 12 samples.

Results

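In A2058 cells, an established human melanoma line, the libraries made after transfection of a siRNA against MITF were compared with those made after transduction of an empty lentiviral vector. These groups were chosen because their MITF transcript levels lie close together although the cells were handled differently. They make up 6 of the 12 libraries of the study, 3 in each group. All genes that passed a filter on low counts were tested, which were 14297 of the 26364 genes in the table.

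The empty vector group (LVX empty vector control) received lentivirus made from a vector with no insert, a spin in medium with polybrene, and puromycin selection. The MITF siRNA group received siRNA against MITF by lipofection and was held for 48 hours. Virus and puromycin are named in the labels' protocol for the transduced cells. The scrambled siRNA group, which was transfected by the same protocol with a siRNA of scrambled sequence, is given beside them, and the fourth group (LVX MITF vector) enters the fit only. All groups were grown in DMEM. An effect of transfection, of transduction, of puromycin selection and of the siRNA itself cannot be told apart between the MITF siRNA and empty vector groups. Whether the transduced cells were a pool or a clone, and when they were harvested, and which siRNA sequences were used, the labels do not say. The labels call the libraries biological replicates without saying how separately the cultures were kept, so a p-value here reflects how these libraries vary, which may be technical.

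MITF is the transcription factor that sustains the melanocyte lineage. It binds E-box and M-box sequences before pigment genes such as TYR and DCT, and melanoma cells with little MITF tend to show invasive, AXL-rich expression states. Cells that meet foreign nucleic acid, such as double-stranded RNA in the cytoplasm, can release type I interferon, which switches on interferon-stimulated genes. Cholesterol synthesis is set by SREBF2, which is released to the nucleus when membrane sterol falls.

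Depth differed between the groups. The empty vector libraries held 7427637 to 14500191 counts and the MITF siRNA libraries 17870695 to 23938392, so 3 counts, the floor below which a gene counts as near 0, correspond to 0.207 to 0.404 CPM with the empty vector and 0.125 to 0.168 CPM with MITF siRNA. CPM is the count scaled to a common library total with TMM factors. Log2 CPM values correlated over genes at 0.994 to 0.998 within groups and at 0.982 to 0.985 between the 2 groups. The nuclear RNA MALAT1 took 0.480% to 0.666% of counts with the empty vector and 0.273% to 0.635% with MITF siRNA, lowest in MITF siRNA replicate 2. The gene annotated as MIR6087, singled out after its values were seen, stood at 416, 11945 and 12735 CPM in the empty vector libraries, so replicates 2 and 3 stood apart from replicate 1. It stood at 185, 289 and 252 CPM with MITF siRNA (log2 fold change -5.11 (SE 1.05), adjusted p = 0.00421), a call that ended with only these 2 groups in the fit (adjusted p = 0.0558), and its part in other results was not tested. All 9 melanocytic markers were measured above 1 CPM in all 6 libraries, with a summed level of 4494 to 4719 CPM with the empty vector and 6636 to 7291 CPM with MITF siRNA. Of the markers of other cells, CD3E and MS4A1 of the 8 for blood cells and 3 of 6 for keratinocytes (KRT5, TP63, DSG3) had no count in any of the 6. Summed levels of the blood list were 12.9 to 16.1 CPM with the empty vector and 23.1 to 24.9 CPM with MITF siRNA. They were 25.1 to 26.3 against 19.5 to 25.2 CPM for the fibroblast list of 7 genes, 22.0 to 24.4 against 17.6 to 20.1 CPM for the keratinocyte list and 2.68 to 3.84 against 2.38 to 2.74 CPM for the endothelial list of 5. In all 6 libraries LUM made up most of the fibroblast sum and KRT10 most of the keratinocyte sum, so each mainly follows a single gene. The part of other cells in the results below was not tested. In bulk samples, fewer cells of a type and less RNA per cell cannot be told apart.

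Promoter sequences of 5 genes are shown as examples of motif matches in genes of 3 groups described below; use of these sites was not measured. They come from RefSeq on GRCh38.p14 and hold bases before the gene's start only, read along the gene's strand, with motif matches in capitals. The pigment genes EDNRB (endothelin receptor B, chr13:77919771-77919890, minus strand) and TYR (tyrosinase, chr11:89177755-89177874, plus strand) hold the M-box or E-box core. The interferon-stimulated genes LGALS3BP (chr17:78979924-78980043, minus strand) and IFITM3 (chr11:320861-320980, minus strand) hold the core of the interferon-stimulated response element. SREBF2 (chr22:41832916-41833035, plus strand) holds a sterol regulatory element.
EDNRB: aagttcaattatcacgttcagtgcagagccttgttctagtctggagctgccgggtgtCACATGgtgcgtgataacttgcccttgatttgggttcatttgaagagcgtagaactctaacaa
TYR: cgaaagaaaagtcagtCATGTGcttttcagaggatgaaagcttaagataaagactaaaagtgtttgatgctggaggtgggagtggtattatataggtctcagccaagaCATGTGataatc
LGALS3BP: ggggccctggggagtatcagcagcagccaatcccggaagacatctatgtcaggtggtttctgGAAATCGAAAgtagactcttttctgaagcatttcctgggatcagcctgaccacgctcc
IFITM3: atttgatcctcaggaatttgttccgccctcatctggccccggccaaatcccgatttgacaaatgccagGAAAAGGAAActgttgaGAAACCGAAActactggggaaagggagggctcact
SREBF2: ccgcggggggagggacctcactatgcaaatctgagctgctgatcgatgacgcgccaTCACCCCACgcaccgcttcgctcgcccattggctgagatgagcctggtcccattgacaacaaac

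The motifs were searched on both strands in the 250 bases before each start. The E-box and M-box core CATGTG, which reads CACATG on the opposite strand, or its palindromic form CACGTG was present in 11 of 19 pigment genes with a promoter in the RefSeq table (57.9%), in 8 of 32 other reported MITF targets (25%) and in 15.5% of all 27305 promoters. GAAANNGAAA was present in 24 of 40 genes of the interferon list (60.0%), against 3.07% of all. TCACNCCAC was present in 1 of 26 cholesterol and fatty acid synthesis genes (3.85%), against 0.875% of all. These are matches of letters in a window and were not measured as bound sites.

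MITF itself stood at 299, 311 and 301 CPM in the 3 empty vector libraries and at 343, 322 and 365 CPM in the 3 MITF siRNA libraries. All 3 siRNA libraries lay above all 3 empty vector libraries, by a log2 fold change of 0.18 (SE 0.051) (95% interval 0.073 to 0.28). The adjusted p was 0.00545 by the quasi-likelihood test of edgeR, adjusted after Benjamini and Hochberg over all tested genes. Every other adjusted p here was obtained likewise, except where another test, filter or set of libraries is named. Without MITF siRNA replicate 3 the call ended (log2 fold change 0.13, adjusted p = 0.0601). With scrambled siRNA MITF stood at 504, 465 and 431 CPM, above every library of both groups. The closeness of the compared groups thus refers to transcript level, which in the MITF siRNA libraries was below that of the scrambled siRNA libraries, and MITF protein was not measured in these files.

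With MITF 13.1% higher, 6103 of the 14297 tested genes differed between MITF siRNA and empty vector (42.7%), 3123 higher (21.8%) and 2980 lower (20.8%). The median absolute log2 fold change of the called genes was 0.35. A change of at least 2-fold was called for 647 genes (4.53%), 382 higher (2.67%) and 265 lower (1.85%). The siRNA and empty vector values did not overlap for 7041 genes (49.2%). The median log2 fold change of all tested genes was 0.0042.

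**Figure D1:**
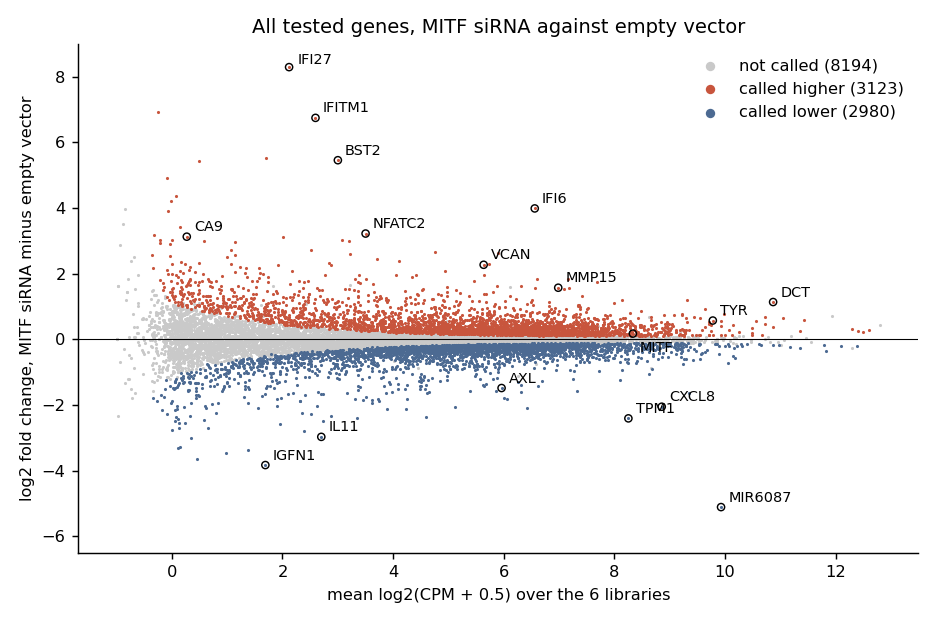
Fitted log2 fold change of MITF siRNA minus empty vector against mean log2(CPM + 0.5) over the 6 libraries, 1 point for each of 14297 genes. Red points (3123) were called higher and blue points (2980) lower; MITF lies close to 0, while interferon-stimulated genes such as IFI27, IFITM1 and BST2 lie at the top and IGFN1, IL11 and TPM1 near the bottom, below them MIR6087.

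MITF siRNA was also set against scrambled siRNA, where 5057 genes differed (35.4%), and scrambled siRNA against empty vector, where 5502 differed (38.5%). The first comparison is the sum of these others on the log2 scale. Since they share libraries, their values are only given side by side. In the lists below, the first comparison is meant unless another is named, and a list's count is to be read beside the 21.8% higher and 20.8% lower among all genes.

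Pigment genes, like tested genes at large, moved in both directions. Of 23 tested pigment and melanosome genes, 7 were higher with MITF siRNA (background 21.8%), 5 were lower (background 20.8%) and 11 were not called. Their median log2 fold change was 0.078. Against scrambled siRNA, 0 were higher (background 18.7%) and 17 lower (background 16.7%), with a median of -0.43. With scrambled siRNA against empty vector, 17 were higher (background 18.9%) and 2 lower (background 19.6%), with a median of 0.55. The summed level of the 24 listed pigment genes was 5520 to 5727 CPM with the empty vector, 7478 to 8215 CPM with MITF siRNA and 9719 to 10631 CPM with scrambled siRNA, so the MITF siRNA libraries lay between the others in this sum. The sum weighs abundant genes most. DCT alone stood at 1304, 1298 and 1195 CPM with the empty vector and 2611, 2573 and 3175 CPM with MITF siRNA.

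DCT, the dopachrome tautomerase of eumelanin synthesis, stood at 1304, 1298 and 1195 CPM with the empty vector and 2611, 2573 and 3175 CPM with MITF siRNA, a 2.2-fold rise (log2 1.14 (SE 0.080), adjusted p = 3.60e-08). Its scrambled siRNA libraries, at 4205, 3940.2 and 3622 CPM, lay above both. TYR, the rate-limiting enzyme of melanin synthesis whose promoter with its CATGTG matches is printed above, stood at 753, 683 and 726 CPM with the empty vector, 1030.5, 1104 and 1088 CPM with MITF siRNA and 1094, 1030.1 and 1044 CPM with scrambled siRNA. TYR was thus higher with MITF siRNA than with the empty vector without overlap (0.57 (SE 0.045), adjusted p = 1.04e-12), while both siRNA groups overlapped (MITF siRNA minus scrambled siRNA 0.024 (SE 0.044), adjusted p = 0.713). EDNRB behaved alike, at 529, 526 and 529 CPM, 771, 770.3 and 737 CPM and 769, 766 and 746 CPM in the same order of groups (0.52 (SE 0.041) over the empty vector, adjusted p = 8.93e-13). MC1R, the melanocortin receptor that stimulates eumelanin synthesis, rose by 0.74 (SE 0.084) and LYST, a regulator of lysosome-related organelle size, by 0.40 (SE 0.045) on the log2 scale.

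MLANA, PMEL and GPNMB were not called between MITF siRNA and empty vector. MLANA, a melanosome antigen, stood at 58.5, 65.2 and 63.2 CPM with the empty vector and 55.6, 59.4 and 64.8 CPM with MITF siRNA. The groups overlapped, with a log2 fold change of -0.044 (SE 0.061) (95% interval -0.17 to 0.081, adjusted p = 0.596), while scrambled siRNA gave 118, 103 and 109 CPM. PMEL, which forms the fibrils on which melanin is laid down, gave 763, 613 and 679 CPM and 734, 736 and 796 CPM and likewise overlapped (0.14 (SE 0.074), 95% interval -0.021 to 0.30, adjusted p = 0.153), with 1285, 1114 and 1128 CPM in the scrambled siRNA libraries. Without empty vector replicate 1, its highest library, PMEL was called higher (0.22, adjusted p = 0.00642), as it was in all libraries with no filter on low counts (0.15, adjusted p = 0.00941). GPNMB, a melanosome glycoprotein, stood at 487, 516 and 467 CPM and 502, 501 and 510.4 CPM, against 763, 737 and 715 CPM with scrambled siRNA. For these 3 genes the scrambled siRNA libraries were the ones apart. TYRP1, another melanin synthesis enzyme, was lower with MITF siRNA (-0.16 (SE 0.048), adjusted p = 0.00924, but 0.0575 without empty vector replicate 1), as were the transporter genes SLC45A2 (-0.38 (SE 0.058)) and SLC7A11 (-0.66 (SE 0.079)), the latter a cystine carrier.

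Of 37 other reported MITF targets, 12 were higher, 5 lower and 20 not called (median 0.11). Against scrambled siRNA 32 of the same genes were lower and 0 higher (median -0.39). BCL2A1, an antiapoptotic BCL2 relative, stood at 35, 35 and 33.6 CPM with the empty vector and at 14.8, 16.3 and 15.6 CPM with MITF siRNA, 2.22-fold lower (-1.15 (SE 0.071), adjusted p = 3.80e-15). GPRC5B, an orphan receptor, stood at 25.7, 24.2 and 25 CPM and 12.1, 13.3 and 12.2 CPM (-1.0 (SE 0.079), adjusted p = 1.60e-12). Both genes were lower than in all scrambled siRNA libraries too, which gave 22.3, 21.1 and 21.7 CPM for BCL2A1 and 23, 20.9 and 21.4 CPM for GPRC5B. These reported targets were below the empty vector level and MITF was not. Scrambled siRNA was below the empty vector as well for BCL2A1 (-0.67 (SE 0.072), adjusted p = 2.37e-09) and GPRC5B (-0.20 (SE 0.077), adjusted p = 0.0347). MITF was higher in that comparison (0.62 (SE 0.051)). RRAGD, a Rag GTPase of nutrient signalling, stood at 51.2, 47.6 and 49.2 CPM with the empty vector and 43.2, 44.6 and 46.4 CPM with MITF siRNA and was not called (-0.15 (SE 0.061), adjusted p = 0.0512). It was called lower without empty vector replicate 2 (adjusted p = 0.0374) or MITF siRNA replicate 3 (adjusted p = 0.0412). MYO1D, an unconventional myosin, and MBP, myelin basic protein, rose by 0.54 (SE 0.057) and 0.42 (SE 0.060).

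**Figure D2:**
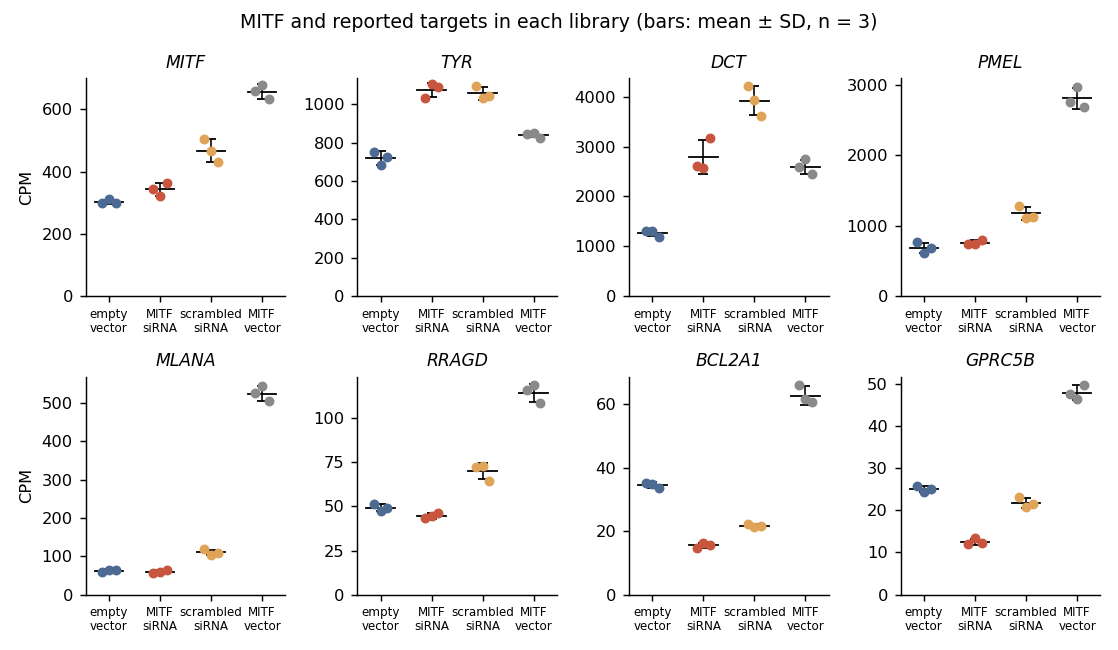
CPM of MITF and 7 reported targets in each library, with points for libraries and bars for mean ± SD (n = 3); the y axis starts at 0. MLANA, PMEL and RRAGD lie at similar levels in the empty vector and MITF siRNA libraries, DCT and TYR lie higher with MITF siRNA and BCL2A1 and GPRC5B lower.

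Among 19 tested factors of the MITF family and the neural crest, 8 were higher and 2 lower (4 lower without empty vector replicate 1). FOXD3, a neural crest factor, stood at 13.3, 13.2 and 14 CPM with the empty vector and 25.4, 26.1 and 23.7 CPM with MITF siRNA (0.89 (SE 0.10), adjusted p = 1.45e-08). With scrambled siRNA it stood at 14.2, 12.8 and 9.05 CPM, so the MITF siRNA libraries were above all others. SOX5 (0.77 (SE 0.075)), SOX4 (0.55 (SE 0.056)) and ETV5 (0.45 (SE 0.043)) rose, as did SOX10, which activates MITF (0.22 (SE 0.042)). TFE3, an MITF relative that drives lysosomal genes, fell (-0.51 (SE 0.065), adjusted p = 5.25e-08). Of the EMT factors, SNAI1 (0.85 (SE 0.20)) and ZEB1 (0.36 (SE 0.093)) rose and PRRX1 (-0.65 (SE 0.13)) fell.

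Interferon-stimulated genes led the rises. Of 49 tested genes of the interferon response list, 38 were higher with MITF siRNA and 1 was lower, with a median log2 fold change of 0.70. Against scrambled siRNA 3 were higher and 5 lower (median -0.071), and with scrambled siRNA against empty vector 42 were higher and 1 lower (median 0.86). Near-identical members such as IFITM1, IFITM2 and IFITM3 may share reads and are uncertain as single genes.

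IFI27, an interferon-inducible mitochondrial protein, stood at 0.0688, 0 and 0.202 CPM in the empty vector libraries, 3 counts in all, and at 28.9, 40.5 and 27.5 CPM in the MITF siRNA libraries, 1924 counts. The ratio of the summed counts per total was 338, with a 95% interval of 115 to 1639 that covers counting error only (adjusted p = 0.0017). IFI6, a mitochondrial antiapoptotic protein, was well measured in both groups, at 24.3, 23 and 23.1 CPM against 348, 437 and 338 CPM, 15.9-fold higher (log2 3.99 (SE 0.40), adjusted p = 5.18e-05). BST2, which tethers budding enveloped viruses to the cell, went from 1.03, 1.1 and 0.809 CPM to 37.1, 51.4 and 41.5 CPM (5.46 (SE 0.69)). ISG15, a ubiquitin-like modifier, stood at 11.5, 7.84 and 11.9 CPM against 57.1, 82.6 and 66.5 CPM (2.68 (SE 0.43), adjusted p = 0.00108). No overlap was a condition for naming IFI27, IFI6 and BST2. ISG15 did not overlap either, as was so for 49.2% of all tested genes. OAS2, which makes the 2-5A second messenger after binding double-stranded RNA, rose from 0.275, 0.138 and 0.404 to 11.4, 15.2 and 13.3 CPM (adjusted p = 0.0149) and the antiviral GTPase gene MX1 from 2.96, 2.61 and 2.43 to 18.5, 24.9 and 23.6 CPM (3.04 (SE 0.60)). Counts of IFI27, IFITM1 and OAS2 are few in the empty vector libraries, and their calls ended by limma-voom (adjusted p = 0.0882, 0.0574 and 0.165). That of OAS2 ended also without empty vector replicate 1 (adjusted p = 0.0666).

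Other members of the list were measured at a range of levels. IFITM3, whose promoter holds 2 GAAANNGAAA matches, stood at 86.2, 80.0 and 84.7 CPM with the empty vector and 248, 269 and 234 CPM with MITF siRNA (1.58 (SE 0.14), adjusted p = 1.92e-05). LGALS3BP, a secreted galectin ligand, stood at 619, 526 and 597 against 1111, 1131 and 1048 CPM (0.92 (SE 0.085), adjusted p = 2.79e-06). IRF9, a DNA-binding subunit of the factor that carries the interferon signal, rose by 1.52 (SE 0.22). IFIT2 (1.28 (SE 0.13)), IFITM2 (0.69 (SE 0.094)) and IFI35 (0.84 (SE 0.10)) rose. MX2 was the member called lower (-0.33 (SE 0.055)).

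The scrambled siRNA libraries varied far more in these genes than the others. IFI27 stood there at 9.72, 19.4 and 55.4 CPM and IFI6 at 176, 259.8 and 479 CPM, each lowest in replicate 1 and highest in replicate 3. Over the 49 genes the median coefficient of variation was 27.6% with scrambled siRNA, 8.29% with MITF siRNA and 7.14% with the empty vector, beside 6.10%, 6.11% and 6.77% over all tested genes. The fit takes the spread of a gene from all 12 libraries. The scrambled siRNA spread thus also enters the SE and adjusted p of these genes for MITF siRNA minus empty vector. All MITF siRNA values of IFI27 and IFI6 lay within the scrambled siRNA range. For IFI6 the log2 fold change of MITF siRNA minus scrambled siRNA was 0.30 (SE 0.30), with a wide 95% interval of -0.40 to 0.99 (adjusted p = 0.505).

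**Figure D3:**
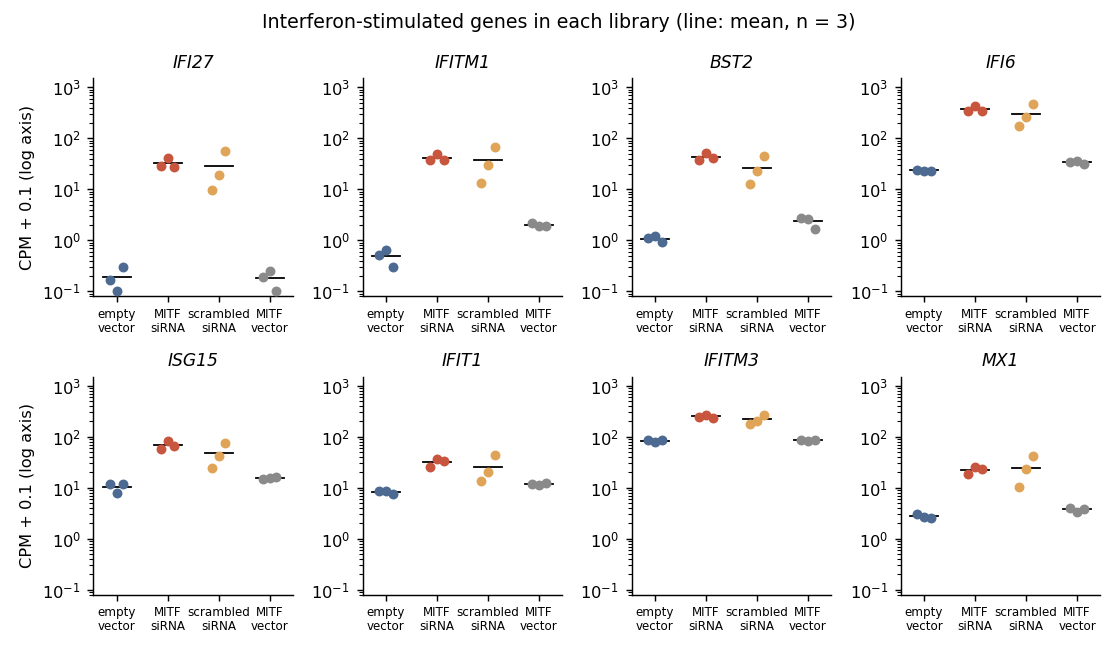
CPM plus 0.1 on a log axis for 8 interferon-stimulated genes in each library, with a line at the mean (n = 3). All MITF siRNA points lie above all empty vector points in each panel, and the scrambled siRNA points spread most widely. For IFI27, IFITM1, BST2, IFI6 and MX1 the absence of overlap was a condition for naming them.

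Sensors of double-stranded RNA were mixed. Of 19 tested genes, 5 were higher and 6 lower (median -0.064). DDX58, which encodes the sensor RIG-I, stood at 19.9, 18.3 and 18 CPM with the empty vector and 32.7, 41.2 and 38.9 CPM with MITF siRNA (1.00 (SE 0.21), adjusted p = 0.00464). The RNA editor gene ADAR (0.37 (SE 0.051)) and TRIM25, a ubiquitin ligase of RIG-I (0.61 (SE 0.083)), rose too. The kinase gene IKBKE (-0.43 (SE 0.064)) and the transcription factor gene IRF3 (-0.27 (SE 0.071)) fell. In the RNA interference machinery 6 of 16 genes were higher and 1 lower (median 0.10). AGO2, the slicer that siRNAs load into, stood at 56.8, 58.4 and 59.9 CPM with the empty vector and 80.6, 92.9 and 92 CPM with MITF siRNA, without overlap (0.61 (SE 0.060), adjusted p = 2.60e-10), and MOV10, a helicase bound to Argonaute, rose by 0.42 (SE 0.062). Factors that restrict or help retroviruses, a list of 18 genes listed because the empty vector group had met a lentivirus, had 4 higher and 5 lower. The higher count was 2 without empty vector replicate 3, and the lower count was 2 without empty vector replicate 1 and 3 by DESeq2. SAMHD1, a dNTP hydrolase and itself interferon-inducible, rose by 1.44 (SE 0.24), and TNPO3, a nuclear import receptor, fell (-0.44 (SE 0.049)).

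Most genes of antigen presentation were higher. Of 16 tested HLA class II presentation genes 11 were higher and 1 lower (median 0.96; 0 lower without empty vector replicate 3), and of 20 class I genes 14 were higher and 1 lower (median 0.28). HLA-DPA1 stood at 42.1, 46 and 41.9 CPM with the empty vector, 100.1, 117 and 108 CPM with MITF siRNA and 85.8, 101 and 97.2 CPM with scrambled siRNA. The empty vector libraries were the low ones, 2.52-fold below MITF siRNA (1.33 (SE 0.069), adjusted p = 2.09e-15). CIITA, the master regulator of class II genes, rose by 0.81 (SE 0.12) and HLA-DMA, which loads peptides, by 1.31 (SE 0.080). Among class I genes HLA-B stood at 108, 115 and 112 against 356, 433 and 346 CPM (1.76 (SE 0.27)) and the immunoproteasome gene PSMB8 rose by 0.36 (SE 0.062). Reads of HLA genes can fit several family members and alleles, so single HLA values are uncertain. A rise of the blood cell list ran alongside these genes (LYZ, ITGAM and CD68 were called higher, CD68 not without empty vector replicate 1, adjusted p = 0.0601). PTPRC, which marks white blood cells, stood at 0, 0.14 and 0 CPM with the empty vector. With MITF siRNA it stood at 0.28, 0.16 and 0.25 CPM, and it was thus under 1 CPM in all 6 libraries.

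Cholesterol and fatty acid synthesis genes were mostly higher. Of 34 tested genes 26 were higher and 0 lower (median 0.52). HMGCS1, an early enzyme of cholesterol synthesis, stood at 83, 83.8 and 81.2 CPM with the empty vector and 149, 153 and 151 CPM with MITF siRNA, 1.83-fold higher without overlap (0.87 (SE 0.047), adjusted p = 1.13e-16). The scrambled siRNA libraries, at 150.1, 147 and 141 CPM, overlapped the MITF siRNA libraries. Fatty acid synthase FASN (0.76 (SE 0.047)), the desaturase SCD (1.21 (SE 0.075)), CYP51A1 of sterol synthesis (0.61 (SE 0.048)) and the regulators SREBF2 (0.56 (SE 0.050)) and INSIG1 (0.93 (SE 0.070)) rose as well. With scrambled siRNA against empty vector 28 of the 34 were higher and 0 lower (median 0.47), and with MITF siRNA against scrambled siRNA 7 were higher and 7 lower (median -0.0052). In the list of lipid storage and PPAR targets 9 of 19 were higher and 3 lower, led by the fatty acid carrier CD36 (3.92, 2.48 and 2.93 against 12.3, 13.6 and 11.9 CPM, 1.95 (SE 0.14)).

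Glycolysis and hypoxia genes were also mostly higher, 28 of 37 with 5 lower (median 0.46; 3 lower without MITF siRNA replicate 3). BNIP3, a mitophagy receptor, stood at 54.2, 50.4 and 48.7 CPM with the empty vector and 159, 225 and 169 CPM with MITF siRNA (1.84 (SE 0.21), adjusted p = 1.03e-04). PDK1, which restrains pyruvate dehydrogenase, stood at 33.7, 36.2 and 31.3 against 79.3, 110.0 and 87.5 CPM (1.46 (SE 0.16)). In both genes MITF siRNA replicate 2 was highest. Neither gene overlapped the empty vector, as was so for 49.2% of all tested genes. CA9, a carbonic anhydrase of hypoxic cells, was scarce, at 0.275, 0.138 and 0.101 against 1.3, 2.34 and 1.52 CPM (adjusted p = 2.25e-06). Glycolytic GPI (0.69 (SE 0.052)) and PFKL (0.46 (SE 0.048)) and the histone demethylase gene KDM3A (0.78 (SE 0.062)) rose, whereas the transcripts of the hypoxia factors themselves were lower (HIF1A -0.42 (SE 0.044), EPAS1 -1.12 (SE 0.10)).

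**Figure D4:**
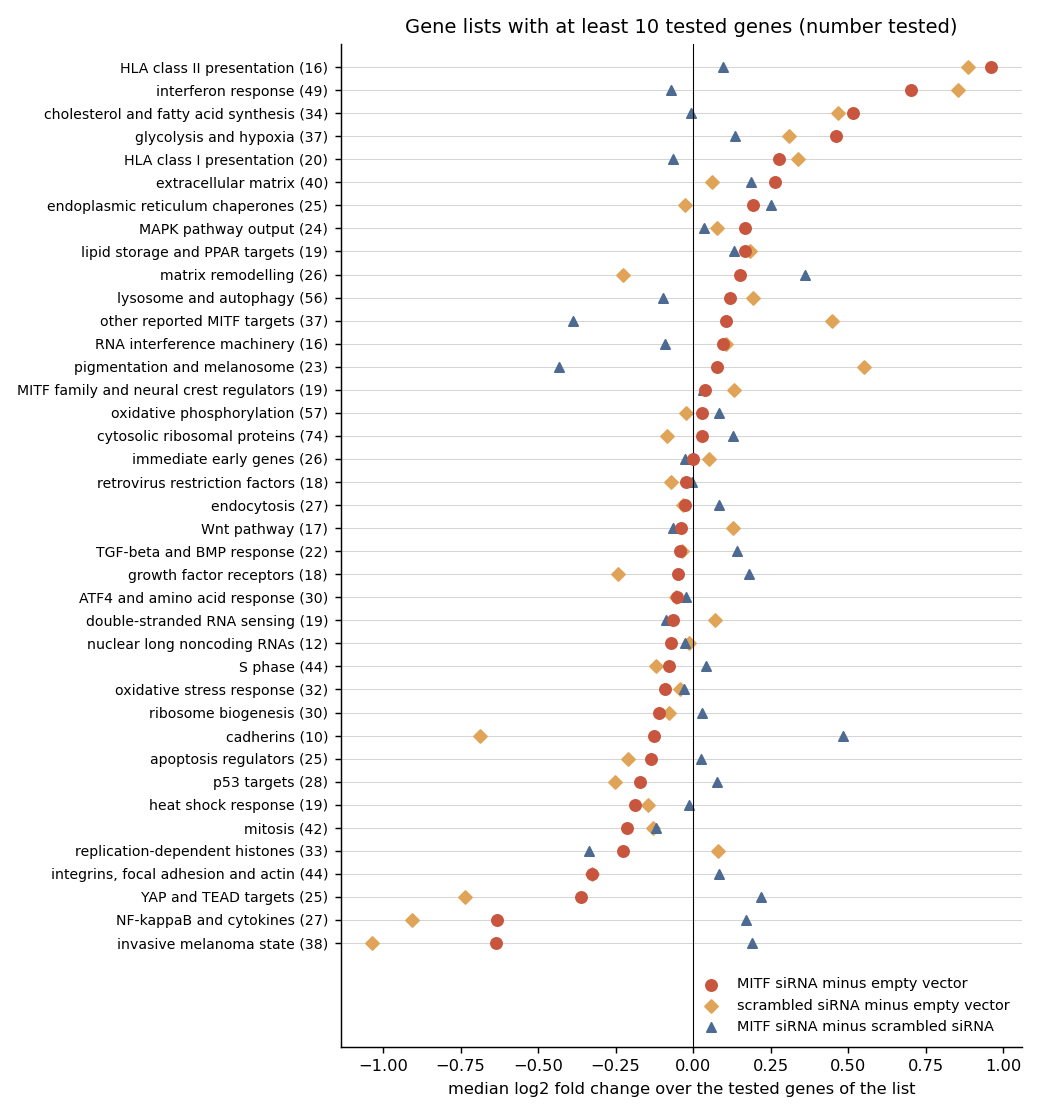
Median log2 fold change over the tested genes of 39 gene lists with at least 10 tested genes each, for 3 comparisons that share libraries. HLA class II, interferon and cholesterol lists lie farthest to the right for MITF siRNA minus empty vector and the invasive and NF-kappaB lists farthest to the left; for the pigment list the MITF siRNA minus empty vector median (0.078) lies near 0.

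Genes of the invasive melanoma state were lower with MITF siRNA. Of 38 tested, 26 were lower and 3 higher (median -0.64). With MITF siRNA against scrambled siRNA 15 were higher and 5 lower (median 0.19), and with scrambled siRNA against empty vector 4 were higher and 29 lower (median -1.04). The list is mixed in function, with adhesion, matrix and receptor genes. AXL, the receptor tyrosine kinase that names this state, stood at 101, 98.8 and 109 CPM with the empty vector and 40.5, 38.5 and 32.5 CPM with MITF siRNA, 2.79-fold lower (-1.48 (SE 0.12), adjusted p = 1.08e-06). With scrambled siRNA it stood at 25.2, 32.1 and 37.8 CPM and overlapped MITF siRNA. NGFR, a neural crest receptor, gave 130.3, 118 and 136 against 51.3, 54.4 and 40.8 CPM (-1.40 (SE 0.17), adjusted p = 1.93e-04), and NTM, a neuronal adhesion protein, 26, 28.1 and 28.8 against 9.64, 10.4 and 9.25 CPM (-1.50 (SE 0.11)). In these 3 genes the empty vector libraries were the high ones. The integrin genes ITGA3 (-1.22 (SE 0.064)) and ITGA2 (-0.85 (SE 0.071)) fell, and the corepressor gene TLE4 rose (0.74 (SE 0.060)).

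Cytokine genes followed the same direction. Of 27 tested NF-kappaB and cytokine genes 19 were lower and 3 higher (median -0.63). With scrambled siRNA against empty vector 23 were lower and 1 higher (median -0.91). With MITF siRNA against scrambled siRNA 2 were lower and 11 higher (median 0.17). CXCL8, the neutrophil chemokine interleukin 8, stood at 946, 896 and 998 CPM with the empty vector and 212, 274 and 200.2 CPM with MITF siRNA, 4.14-fold lower (-2.05 (SE 0.20), adjusted p = 3.71e-05). IL6 stood at 20.6, 16.9 and 23.1 against 8.56, 9.55 and 9.71 CPM (-1.13 (SE 0.12)), and ICAM1, an adhesion receptor for leukocytes, at 159, 152 and 169.7 against 63.8, 62 and 54.5 CPM (-1.42 (SE 0.057)). None of the 3 overlapped between the groups, as was so for 49.2% of all tested genes. CXCL2 (-1.41 (SE 0.093)), BIRC3 (-0.69 (SE 0.063)) and the NF-kappaB inhibitor gene NFKBIA (-0.65 (SE 0.063)) fell. The called rises were TRAF1 (0.84 (SE 0.087)), TNFAIP3 (0.37 (SE 0.063)) and PTGS2 (0.59 (SE 0.069)), the inducible prostaglandin synthase. For PTGS2 the 3 groups were well apart, at 66.4, 67.8 and 64.6 CPM with the empty vector, 88.9, 114 and 95.2 CPM with MITF siRNA and 28.2, 31.2 and 30.4 CPM with scrambled siRNA.

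Transcripts of actin cytoskeleton and adhesion genes were mostly lower. Of 44 tested integrin, focal adhesion and actin genes 31 were lower and 3 higher (median -0.33). With scrambled siRNA against empty vector 31 were lower and 2 higher (median -0.33). With MITF siRNA against scrambled siRNA 8 were lower and 15 higher (median 0.083). TPM1, a tropomyosin of stress fibres, stood at 676, 699 and 731 CPM with the empty vector and 136, 143 and 119 CPM with MITF siRNA, 5.3-fold lower (-2.41 (SE 0.13), adjusted p = 5.80e-07). Its scrambled siRNA libraries, at 143, 183 and 208 CPM, were likewise below the empty vector. TPM2 (-0.77 (SE 0.047)), ITGB8 (-0.71 (SE 0.046)) and ITGAV (-0.60 (SE 0.043)) fell. Of 25 YAP and TEAD targets, which respond to tension and density, 13 were lower and 2 higher (median -0.36), with WWC1 at -1.62 (SE 0.083) and AJUBA at -0.94 (SE 0.084). With scrambled siRNA against empty vector 17 of these targets were lower and 0 higher (median -0.73). With MITF siRNA against scrambled siRNA 2 were lower and 11 higher (median 0.22).

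Extracellular matrix genes moved up, 27 of 40 tested with 3 lower (median 0.26; 5 lower without MITF siRNA replicate 1 or with no filter on low counts). VCAN, the large proteoglycan versican, stood at 21.7, 24.2 and 21.4 CPM with the empty vector, 106, 110.3 and 106 CPM with MITF siRNA and 47.3, 52.6 and 44.5 CPM with scrambled siRNA. The MITF siRNA libraries were above both other groups without overlap, 4.84-fold above the empty vector (2.27 (SE 0.067), adjusted p = 3.98e-24) and 2.24-fold above scrambled siRNA (1.16 (SE 0.057), adjusted p = 2.82e-17). The laminin genes LAMC1 (0.68 (SE 0.048)) and LAMA4 (0.66 (SE 0.050)) and CCDC80 (1.09 (SE 0.10)) rose. Among 26 matrix remodelling genes 11 were higher and 8 lower (median 0.15). MMP15, a membrane-type metalloproteinase, stood at 71.7, 69.1 and 78.7 CPM with the empty vector, 218, 236 and 201 CPM with MITF siRNA and 68.8, 67 and 67.9 CPM with scrambled siRNA. Scrambled siRNA minus empty vector was not called (-0.11 (SE 0.060), adjusted p = 0.153), and the MITF siRNA libraries were above both groups (1.58 (SE 0.056) over the empty vector, adjusted p = 8.36e-22). ADAM19 (0.51 (SE 0.051)) and the collagen lysyl hydroxylase gene PLOD1 (0.54 (SE 0.046)) rose, and the protease inhibitor gene SERPINE2 fell (-0.55 (SE 0.048)).

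**Figure D5:**
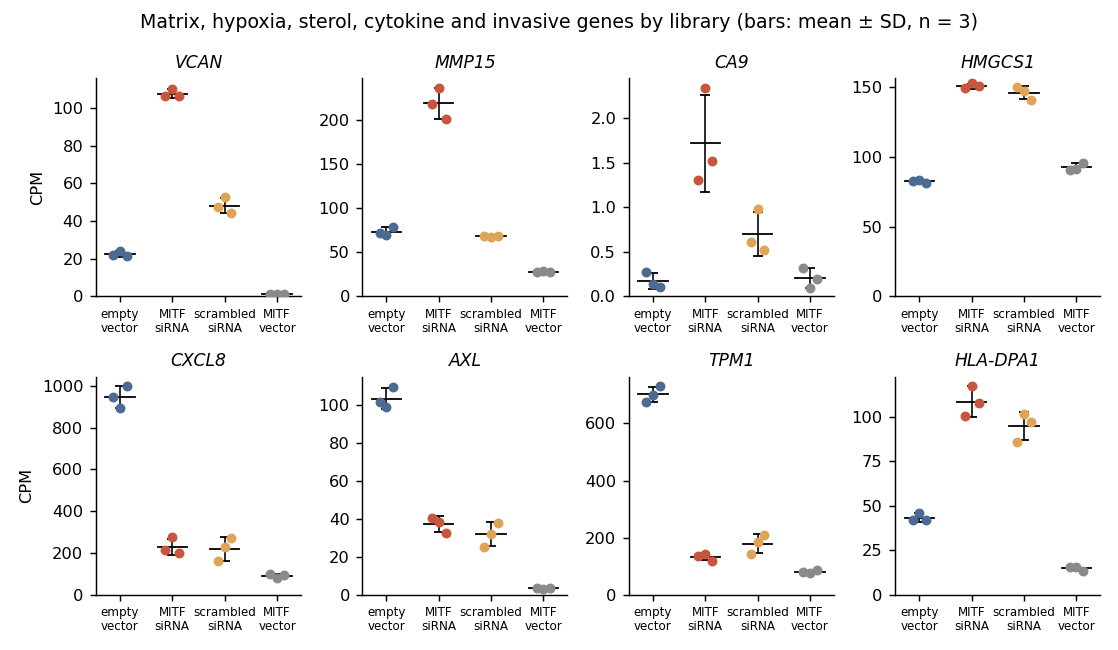
CPM of 8 genes of matrix, hypoxia, sterol, cytokine, invasive, actin and HLA lists in each library, with bars for mean ± SD (n = 3); each y axis starts at 0. MMP15 and VCAN are highest with MITF siRNA, CXCL8, AXL and TPM1 are highest with the empty vector, and HMGCS1 is lowest with the empty vector and overlaps between both siRNA groups.

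The 12 largest rises and falls among genes of mean log2 CPM of at least 1 with no overlap added genes outside these lists. NFATC2, a calcium-activated transcription factor, stood at 3.23, 3.72 and 3.44 CPM with the empty vector, 30.7, 32.9 and 32.3 CPM with MITF siRNA and 11.5, 10.6 and 11.5 CPM with scrambled siRNA (3.23 (SE 0.12) over the empty vector, adjusted p = 1.74e-21). SLC28A3, a nucleoside transporter, stood at 0.619, 0.688 and 0.303 CPM, 4.31, 4.99 and 3.59 CPM and 0.612, 0.281 and 0.588 CPM in that order (2.97 (SE 0.30), adjusted p = 3.66e-10). AFAP1L2, a Src-binding adaptor, stood at 1.65, 1.79 and 2.43 CPM, 12.7, 12.6 and 13 CPM and 2.83, 2.11 and 2.28 CPM (2.72 (SE 0.17)). For SLC28A3 and AFAP1L2 the empty vector and scrambled siRNA libraries overlapped and the MITF siRNA libraries stood above both. ADAMTS4, an aggrecan-cleaving protease (2.72 (SE 0.29)), ACSBG1, an acyl-CoA synthetase (2.99 (SE 0.18)), and CCDC81 (3.13 (SE 0.22)) completed the rises with the interferon genes IFI27, IFITM1, OAS2, BST2, IFI6 and MX1.

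On the lower side, where the rule for names leaves out MIR6087, IGFN1, an immunoglobulin and fibronectin domain protein, stood at 7.64, 11.8 and 7.79 CPM with the empty vector and 0.567, 0.584 and 0.676 CPM with MITF siRNA (-3.83 (SE 0.31), adjusted p = 3.09e-09). IL11, a cytokine of the IL6 family, stood at 15, 16.5 and 17.6 against 1.47, 2.44 and 2.24 CPM (-2.97 (SE 0.22)). LAMP3, a lysosomal membrane protein, stood at 11.6, 11.7 and 12.2 against 2.44, 1.75 and 1.1 CPM (-2.79 (SE 0.18)). All 3 were higher in every empty vector library than in every MITF siRNA library, which was a condition for naming them. PAGE5 (53.5, 53.3 and 52.2 against 11.1, 9.82 and 10.1 CPM, -2.36 (SE 0.070)) and MAGEC1 (-2.34 (SE 0.20)) belong to the cancer-testis antigens, which melanomas often express. Other falls were SH3RF2 (-3.37 (SE 0.26)), the ARF exchange factor gene PSD4 (-2.48 (SE 0.13)), TPM1, the lipolysis inhibitor gene G0S2 (-2.26 (SE 0.17)) and PLEK2 (-2.13 (SE 0.10)). PTRF, the caveolar coat protein cavin 1, was among them too, at 22.4, 19.8 and 23.5 CPM with the empty vector, 3.86, 4.35 and 4.39 CPM with MITF siRNA and 3.52, 3.79 and 3.09 CPM with scrambled siRNA (-2.38 (SE 0.11) against the empty vector). It belongs to the endocytosis list, of which 6 of 27 tested genes were higher and 4 lower (median -0.027).

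Genes of cell division were slightly lower. Of 42 tested mitosis genes 30 were lower and 1 higher (median -0.21). CENPE, a kinetochore motor, stood at 210.3, 233 and 217 CPM with the empty vector and 151, 155 and 151 CPM with MITF siRNA (-0.53 (SE 0.047), adjusted p = 2.36e-11). CCNA2 (-0.48 (SE 0.052)) and AURKA (-0.45 (SE 0.050)) fell, MKI67 was not called (0.10 (SE 0.080), adjusted p = 0.344, but 0.00907 without empty vector replicate 2) and CDK1 was the member called higher (0.14 (SE 0.047)). The CDK1 call ended without empty vector replicate 2 (adjusted p = 0.103) or MITF siRNA replicate 2 (adjusted p = 0.0787). So the size of these changes was small beside those of the interferon and cytokine genes. Replication-dependent histone genes had 22 of 33 lower and 2 higher (median -0.23). The higher count was 4 without empty vector replicate 1 or replicate 2 or with no filter on low counts, and 6 without MITF siRNA replicate 3. HIST1H2BC stood at 212, 218 and 235 against 161, 154 and 146 CPM (-0.53 (SE 0.051)); these gene copies are near-identical and uncertain as single genes. Heat shock genes had 14 of 19 lower and 0 higher (median -0.19), with HSPA8 at -0.35 (SE 0.044). Of 28 p53 targets 15 were lower and 4 higher (median -0.17), among them the death receptor gene TNFRSF10B (-0.41 (SE 0.044)) on the lower side and the kinase gene PLK2 (0.43 (SE 0.043)) on the higher.

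Signalling output was divided. Of 24 MAPK output genes 13 were higher and 9 lower (median 0.17). The feedback inhibitor gene SPRY1 stood at 12.3, 14 and 14.3 CPM with the empty vector and 28.2, 34.5 and 31.6 CPM with MITF siRNA (1.24 (SE 0.089)), and SPRY4 rose by 0.95 (SE 0.068). Of 26 immediate early genes 6 were higher and 9 lower (median 0.0012), and FOSL2 of the AP-1 family fell (-0.76 (SE 0.082)). Of 18 growth factor receptor genes 5 were higher and 9 lower, with MET lower (-0.81 (SE 0.067)) and the neuregulin receptor gene ERBB3 (0.33 (SE 0.039)) and TYRO3 (0.39 (SE 0.052)) higher. Among 10 cadherins 4 rose and 5 fell. The protocadherin gene PCDH18 stood at 10.6, 10.3 and 9.5 CPM with the empty vector, 33.2, 42.4 and 38.1 CPM with MITF siRNA and 17.9, 17.6 and 12.9 CPM with scrambled siRNA (1.90 (SE 0.11), adjusted p = 8.15e-13), PCDH9 rose by 1.21 (SE 0.078), and CDH2, N-cadherin, fell (-0.29 (SE 0.051)).

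Lysosome and autophagy genes had 23 of 56 higher and 12 lower (median 0.12). LIPA, lysosomal acid lipase, stood at 85.1, 75.8 and 82.1 CPM with the empty vector and 136, 146 and 139 CPM with MITF siRNA (0.79 (SE 0.053), adjusted p = 2.55e-14), and GUSB (0.74 (SE 0.054)) and GAA (0.76 (SE 0.065)), both lysosomal glycosidases, rose. SQSTM1, the autophagy receptor p62, stood at 879.8, 827 and 863 against 574, 547 and 539.9 CPM and at 777, 851 and 910.1 CPM with scrambled siRNA. The MITF siRNA libraries were the low ones there (-0.63 (SE 0.048), adjusted p = 5.84e-13). Chaperones of the endoplasmic reticulum had 13 of 25 higher and 3 lower (median 0.19), with P4HB, a disulfide isomerase and collagen hydroxylase subunit, at 0.48 (SE 0.047).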

How the data were processed

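The authors deposited whole-number read counts per gene, not normalized. Per the submitters' processing notes the tools were STAR 2.6.0, featureCounts 1.6.3, SAMtools 1.10 and bcl2fastq 2.18.0, with hg19. No source used here gives strand or multi-mapping settings. Genes passing filterByExpr (minimum count 10) were fitted in all 12 libraries with 4 group means by the edgeR 4.0.16 quasi-likelihood method (robust, TMM; R 4.3.3), and called at a Benjamini-Hochberg adjusted p under 0.05. Alternatives used DESeq2 1.42.0 size factors or test, limma-voom (limma 3.58.1), no filter, 2 groups only, a replicate block and each library left out. The steps were tested on simulated data in which far fewer genes changed than were called here. Members and the 47 gene lists, written from general knowledge, were chosen with earlier results of these data known. The text names MITF, the 12 genes with the largest fitted rise and the 12 with the largest fall (mean log2 CPM at least 1, no overlap, no placeholder names or pseudogenes), and by smallest adjusted p up to 4 called genes a list. Genes outside this rule, such as AXL, CXCL8, PMEL, MLANA and CA9, were chosen after their values were seen. Some genes that the rule selects are not reported here. Of 26364 symbols, 25198 matched RefSeq.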

Additional observations from a re-analysis of the deposited data

How the results depend on the processing

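The called count of 6103 genes was 6093 with DESeq2 size factors, 6203 without a filter, 5361 by DESeq2, 6020 by limma-voom and 5683 with the 2 groups alone, and 5210 to 6021 with 1 library left out. In these fits 83.0% to 99.3% of the called genes remained called, and none with the opposite sign. Replicate numbers did not pair the libraries: same-numbered MITF siRNA and empty vector libraries deviated from their group means with correlations of -0.091 to 0.079. With the replicate block 6015 genes were called, 3100 higher and 2915 lower, and 638 at least 2-fold, against 4960 for MITF siRNA minus scrambled siRNA and 5394 for scrambled siRNA minus empty vector. Precision is limited by 3 libraries a group and by the shallowest library, with 7427637 counts. Without MITF siRNA replicate 1 the MLANA difference, which was not called in any fit, changed sign (log2 fold change 0.0066, against -0.11 without MITF siRNA replicate 3).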
